A study of Mus musculus with 25 samples.

Results

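A stretch of mouse chromosome 17 from 24 to 37.5 Mb of the mm9 genome build, rich in genes and containing the major histocompatibility complex (MHC), was described in DNA methylation libraries of the pancreas. Its members were every interval of the deposited count table on that chromosome whose start lay between those limits, 454 of 22749 intervals (2.00%). The 133 intervals that start at 33.5 Mb or beyond form the MHC part, and the other 321 form the rest of the window. Membership depended on position alone and on no measured value.

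All 25 libraries came from FVB mice, 1 mouse per library and 5 mice per group. Control mice were raised in litters of 9 pups and small-litter mice in litters of 4 pups, each from P1 to P21 (postnatal days). Islets, the endocrine micro-organs that hold the insulin-producing beta cells, were hand-picked in 3 rounds from control and small-litter mice at postnatal day 21 (P21) and day 180 (P180). The fifth group, called exocrine here, was the whole pancreas of P21 control mice, exocrine for about 98% by the submitters' estimate. It therefore still contained some islets. Replicate numbers recur across groups but belong to different mice. The identity of the tissues could not be checked against marker genes, because the table lists genome intervals and no expression values.

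The MHC, named H2 in mice, holds the genes of the class I and class II molecules that present peptides to T cells. Its class III segment lies between them and carries complement and tumour necrosis factor genes. Class I molecules sit on nearly every nucleated cell, beta cells included, and class II molecules mainly on professional antigen-presenting cells. The H2 genes differ between mouse strains more than most genes do, and the reference genome comes from another strain than FVB. Whether sequence differences affected any count was not tested. CpG methylation, the addition of a methyl group to cytosine before guanine, is usually dense across mammalian DNA and low at active promoters rich in CpG.

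The assay, MSA-seq (sequencing of a methylation-specific amplification), reads methylation at pairs of neighbouring CCCGGG sites. SmaI first cuts the unmethylated sites and leaves blunt ends, then XmaI opens the methylated ones with overhangs that take an adaptor, so a fragment is amplified when the sites at both of its ends carry methylation. Each interval of the table runs from one such site to the next, and a higher count means that more DNA copies were methylated at both ends. The scale is relative. Values were compared between libraries for one interval, although libraries also differed in a trend with interval length, given below. They are not comparable between intervals as methylation levels, since fragments of different length and composition amplify unequally. In bulk DNA, methylation in a larger share of each cell type and a changed mix of cell types cannot be told apart.

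The recognition site is the sequence on which every value below rests. It occurs in 4436 of 32851 promoter entries of RefSeq (13.5%; build GRCm38.p6, 300 bases per entry of which 250 precede the annotated start), searched as CCCGGG, which reads the same on both strands. Among the 35 entries of 32 H2 genes it occurs in 1 (2.86%), and among the 176 entries of other genes between the first and last H2 gene it occurs in 26 (14.8%). The single H2 entry is that of H2-D1, a classical class I gene, where the site lies after the start, within GRCm38.p6 chr17:35263089-35263118 on the plus strand. Whether the assay reads an interval that ends there was not examined, and the sequence is that of the reference strain, not FVB. This stretch is printed as the only H2 entry found with the site, which is in capitals.
H2-D1: gggactcagacaCCCGGGatcccagatggg
GRCm38.p6 positions do not match those of mm9, so this stretch was not assigned to an interval. An mm9 annotation was not used here, and intervals are therefore named by their mm9 coordinates as the table gives them, with no statement on gene, exon or intron.

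The libraries held between 2912624 and 10591677 counts in all, with a median of 4427238. Of these, 0.664% fell in the MHC part and 1.58% in the rest of the window. Across the window's libraries and intervals, a count of 0 made up 0.0902% of values in the MHC part and 0.0748% in the rest, against 0.266% in the whole table. Of the 454 members, 452 passed the filter on low counts for the tissue comparison and 453 for the islet comparisons. No 2 libraries of a group agreed within sampling noise, with a chi-square per degree of freedom from 3.59 to 32 over 50 pairs. The labels give no batch.

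Intervals were spread through both parts at nearly the same density, 33.3 per Mb in the MHC part and 33.8 per Mb in the rest of the window. The members clustered unevenly within each. The bin from 34.5 to 35 Mb held 45 intervals and the bin from 28 to 28.5 Mb held 42, while the last bin, from 37 to 37.5 Mb, held 0. Between members, and thus leaving out the empty end of the window, the 2 longest stretches without an interval were 492 kb and 355 kb long. They ran from 32991715 to 33484028 and from 36632446 to 36987487. The median interval was 1079 bp long in the MHC part, 1157 bp in the rest and 1163 bp over the table. In the MHC part 47.4% of intervals ended at the site where the next one began, against 36.8% in the rest and 26.2% over the table. Members were also well covered, with a median of the mean log2 CPM (CPM, the read count scaled to a common library size with edgeR's TMM factors) of 4.42 in the MHC part, 4.52 in the rest and 4.04 over the table.

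Relative to the rest of the window, the MHC part stood higher in exocrine libraries than in islets. The difference in mean log2 CPM, MHC part minus rest, was 0.23, 0.18, 0.13, 0.19 and 0.30 in exocrine replicates 1 to 5 (mean 0.21 ± 0.06 SD, n = 5). In control P21 islets it was -0.13, -0.20, -0.13, -0.13 and 0.01 (-0.12 ± 0.08 SD, n = 5). Small-litter P21 islets ranged from -0.12 to 0.05, control P180 islets from -0.10 to 0.14 and small-litter P180 islets from -0.12 to 0.07. The exocrine libraries lay above 19 of the 20 islet libraries, and the exception was control P180 islets replicate 3. The 4 islet groups overlapped throughout. As a share of all counts, the MHC part took 0.677% to 0.790% in exocrine libraries and 0.605% to 0.659% in control P21 islets, with no overlap. The share in 3 other islet libraries lay within the exocrine range, at 0.704% in small-litter P21 replicate 1, 0.688% in control P180 replicate 3 and 0.683% in small-litter P180 replicate 3. The mean level of the rest of the window was 4.51 log2 CPM in exocrine libraries and 4.56 to 4.64 in the 4 islet groups, and that of the MHC part was 4.71 against 4.52 to 4.56. These are summaries over members and carry no test.

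**Figure D1:**
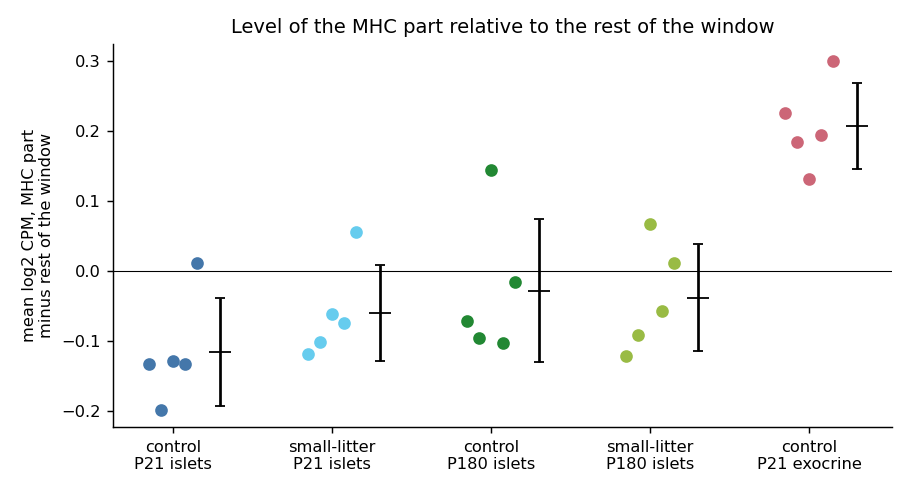
Mean log2 CPM of the 133 intervals of the MHC part minus that of the 321 other intervals of the window (vertical axis, log2 units), 1 point per library by group, with the group mean and SD as a bar (n = 5). The exocrine points lie between 0.13 and 0.30, and 1 islet library, control P180 islets replicate 3 at 0.14, lies among them.

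A library property moved with this value. In each of the 5 groups, the library with the lowest TMM scaling factor, which marks counts concentrated in fewer intervals, had the highest MHC minus rest difference. Those factors were 0.926 (control P21 islets replicate 5), 0.895 (small-litter P21 islets replicate 5), 0.893 (control P180 islets replicate 3), 0.922 (small-litter P180 islets replicate 3) and 0.828 (exocrine replicate 5). Its part in the difference between tissues was not tested. The factors of the other exocrine libraries were 0.946 to 1.02, and those of the other islet libraries 0.979 to 1.14.

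Exocrine tissue was then compared with islets interval by interval in the 10 control P21 libraries, the only setting in which both tissues were sampled. In the MHC part 13 of 132 tested intervals rose in exocrine tissue (9.85%, against 8.07% over the table) and 10 fell (7.58%, against 14% over the table). In the rest of the window 20 of 320 rose (6.25%) and 58 fell (18.1%). An interval was called when edgeR's quasi-likelihood test gave a Benjamini-Hochberg adjusted p below 0.05 over all 22514 tested intervals. The median log2 fold change, exocrine over islets, was 0.23 in the MHC part, -0.06 in the rest and -0.02 over the table. The sign was positive for 89 of 132 intervals of the MHC part (67.4%), for 149 of 320 of the rest (46.6%) and for 48.5% over the table. With the trend of counts on interval length removed in each library, the calls became 20 higher and 8 lower in the MHC part and 30 higher and 54 lower in the rest. Calls over the table moved the same way, from 1818 to 2355 higher and from 3158 to 2855 lower.

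Single libraries moved these counts. Without control P21 islets replicate 5, 20 intervals of the MHC part and 34 of the rest were called higher, while the count over the table went from 1818 to 2296. Without exocrine replicate 1, 8 of the MHC part were called higher (1298 over the table). Without control P21 islets replicate 2, 6 of the MHC part were called lower (2289 over the table, against 3158 with all libraries). Without the library of lowest scaling factor in each tissue, control P21 islets replicate 5 and exocrine replicate 5, the counts were 19 higher and 13 lower in the MHC part and 34 higher and 67 lower in the rest. Over the table they were 2514 higher and 3549 lower. The median of the MHC part then was 0.27, and over every refit that left out 1 library it stayed between 0.21 and 0.26.

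**Figure D2:**
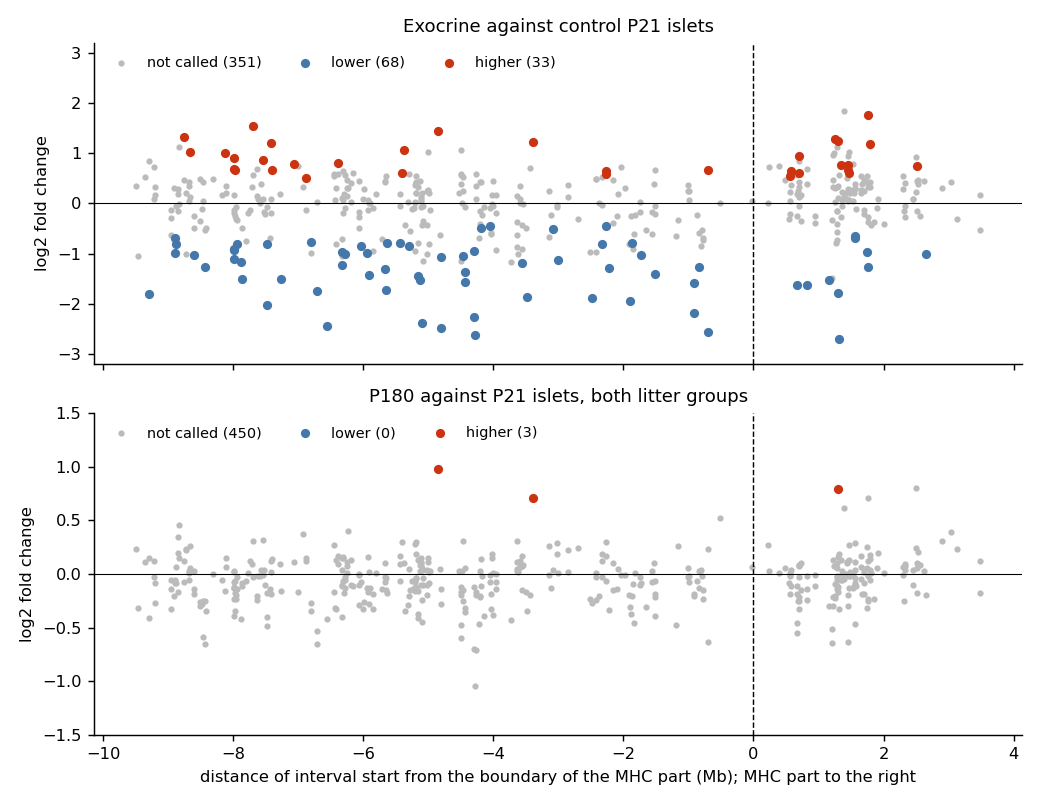
Log2 fold change of every tested interval against the distance of its start from the boundary of the MHC part in Mb, for exocrine tissue over control P21 islets (top) and P180 over P21 islets (bottom), with called intervals coloured by direction. Left of the boundary 58 intervals fell and 20 rose in exocrine tissue, right of it 10 fell and 13 rose, and 3 intervals rose with age.

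The exocrine group had the highest of the 5 group means at 80 of 133 intervals of the MHC part (60.2%) and at 134 of 321 of the rest (41.7%). It had the lowest at 27 (20.3%) and 128 (39.9%). Control P21 islets held the highest mean at 15.8% of the MHC part and at 30.2% of the rest. Within the islets the 4 group means lay close together, with a median ratio of the highest to the lowest of 1.21 in the MHC part and 1.22 in the rest. The ratio exceeded 2 at 4 and 7 intervals. Neither the order of the group means nor this ratio was computed over the whole table, so no background share stands beside them.

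Among called intervals, the 5 exocrine and 5 control P21 islet values did not overlap at 9 of the 13 that rose and 6 of the 10 that fell in the MHC part. In the rest, 12 of the 20 that rose and 29 of the 58 that fell did not overlap. Over the table, 1189 of the 1818 called rises and 1757 of the 3158 called falls did not overlap. These made up 5.28% and 7.8% of all tested intervals. The called rises of the MHC part ran from 0.55 to 1.75 on the log2 scale and its called falls from -0.65 to -2.69. Calls over 4-fold numbered 0 higher (0.2% over the table) and 1 lower (2.36% over the table) in the MHC part, and 0 higher and 8 lower in the rest.

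The interval of the MHC part that rose most was chr17:35261479-35263149, 1670 bp long. Its values were 8.87, 12.9, 15.9, 9.68 and 15.1 CPM in control P21 islets and 35.0, 39.0, 52.9, 59.4 and 31.5 CPM in exocrine tissue. Every exocrine library was higher than every control P21 islet library, with a log2 fold change of 1.75 ± 0.24 (SE; edgeR adjusted p = 0.000171), and the call held in all 10 refits that left out 1 library. The means of the islets of older mice stood between, at 24.7 ± 7.74 CPM in control and 20.6 ± 5.24 CPM in small-litter mice (SD, n = 5). Control P180 islets reached 37.2 CPM, within the exocrine range. The lowest small-litter P180 value, 15.6 CPM, lay within the range of control P21 islets. Small-litter P21 islets held 15.5 ± 4.88 CPM.

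The other rises of the MHC part that met the naming rule were smaller. At chr17:34196710-34198756 control P21 islets held 17 to 32.7 CPM (median 19.0) and exocrine libraries 38.7 to 59.1 CPM (median 40.9), and the interval rose by 0.95 ± 0.21 (SE; edgeR adjusted p = 0.00573). Control P180 islets reached 42.8 CPM there, within the exocrine range. Small-litter P21 and small-litter P180 islets reached 32.5 and 35.5 CPM, below it. At chr17:34853278-34853843, a 565 bp interval, control P21 islets held 94.9 to 159 CPM and exocrine libraries 161 to 311 CPM, a rise of 0.77 ± 0.19 (SE; edgeR adjusted p = 0.0097). These ranges barely missed each other. Small-litter P21, control P180 and small-litter P180 islets reached 213, 211 and 177 CPM, within the exocrine range. The other 2 intervals depended on single libraries. chr17:34747411-34749447 rose by 1.27 ± 0.41 (SE), from 2.39 to 6.44 CPM in control P21 islets to 6.45 to 22.9 CPM in exocrine libraries, and lost its call in 5 of 10 refits that left out 1 library. Small-litter P21 and control P180 islets reached 8.03 and 8.87 CPM there, and small-litter P180 islets 5.73 CPM. chr17:34960278-34962965 rose by 0.76 ± 0.23 (SE), from 9.85 to 16.6 CPM in control P21 islets to 16.9 to 26.9 CPM in exocrine libraries, and lost its call in 4 of 10.

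The largest fall of the MHC part was at chr17:34808857-34808989, only 132 bp long. Control P21 islets held 11.6, 20.1, 10.4, 6.40 and 4.59 CPM and exocrine libraries 0.847, 1.44, 2.13, 0.222 and 3.59 CPM. These groups did not overlap, and the log2 fold change was -2.69 ± 0.54 (SE; edgeR adjusted p = 0.00291) on 209 islet and 46 exocrine counts. The islet values spread widely, also at P180, where control islets held 3.67 to 14.6 CPM. The lowest values of small-litter P21 and small-litter P180 islets, 2.74 and 2.91 CPM, lay within the exocrine range. chr17:34324896-34325431 went from 14.9 to 36.8 CPM in control P21 islets to 4.91 to 10.7 CPM in exocrine tissue, a change of -1.62 ± 0.32 (SE; edgeR adjusted p = 0.00256). The lowest values of control P180 and small-litter P180 islets, 8.13 and 9.49 CPM, lay within the exocrine range. That of small-litter P21 islets, 12.8 CPM, lay above it.

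chr17:36152610-36154431 separated exocrine tissue from all islet groups, but barely from control P180 islets (lowest 21.53 CPM, against an exocrine highest of 21.37 CPM). Control P21 islets held 27.0 to 38.6 CPM, the other 3 islet groups 21.5 to 43.4 CPM, and exocrine libraries 12.2, 21.4, 17.9, 17.8 and 12.9 CPM. Its log2 fold change was -1.01 ± 0.22 (SE; edgeR adjusted p = 0.00414). It was the only interval of the MHC part at which all exocrine values lay below all 20 islet values (1.88% over the table). The only one above them all (1.67% over the table) was chr17:34072800-34074107, with 40.991 to 62.7 CPM in exocrine libraries and 22.5 to 40.985 CPM in the 20 islet libraries, a gap of almost nothing (0.65 ± 0.18 SE, edgeR adjusted p = 0.0189). In the rest of the window 1 interval lay above and 5 lay below all islet libraries. The last named fall, chr17:35238610-35238837, 227 bp long, changed by -0.96 ± 0.28 (SE) and lost its call in 3 of 10 refits.

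Adjoining intervals share a CCCGGG site, so methylation of that site enters both values. The tissue difference of such neighbours correlated with r = 0.48 over the 5897 pairs of the table and r = 0.39 over the 118 pairs of the rest of the window, but r = -0.05 over the 62 pairs of the MHC part. These correlations run across intervals, which share libraries and end sites, and are given as a description. The sign was the same in 37 of 62 pairs of the MHC part, 83 of 118 of the rest and 3884 of 5897 of the table. Both neighbours were called in the same direction in 3 pairs of the MHC part and in opposite directions in 2. In the rest these counts were 10 and 2, and over all intervals they were 480 and 40.

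The 2 opposite pairs of the MHC part were singled out after their values were seen. At the first, chr17:34792631-34793798 fell from 33.1, 22.2, 26.7, 26.1 and 19.9 CPM in control P21 islets to 9.65, 7.40, 3.63, 7.79 and 9.83 CPM in exocrine tissue, with no overlap (-1.79 ± 0.28 SE, edgeR adjusted p = 0.000412). Its neighbour chr17:34793798-34794698 went the other way, from 10.9, 9.32, 10.4, 5.42 and 12.3 CPM to 34.5, 21, 11.5, 14.5 and 36 CPM (1.24 ± 0.33 SE, edgeR adjusted p = 0.0148). Here the tissues overlapped in exocrine replicate 3. The site at position 34793798 bounds both.

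The second opposite pair meets at position 35261479. The 114 bp interval chr17:35261365-35261479 held 13.6, 12.4, 5.21, 4.92 and 3.57 CPM in control P21 islets and 2.88, 3.70, 2.99, 1.78 and 5.62 CPM in exocrine tissue. The groups overlapped, and the change of -1.26 ± 0.44 (SE) had an edgeR adjusted p of 0.0494. Its 1670 bp neighbour is the interval that rose most. A same-direction pair met at position 34196710, where chr17:34195820-34196710 rose by 0.61 ± 0.19 (SE; edgeR adjusted p = 0.0279) beside the rise of 0.95 described above.

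**Figure D3:**
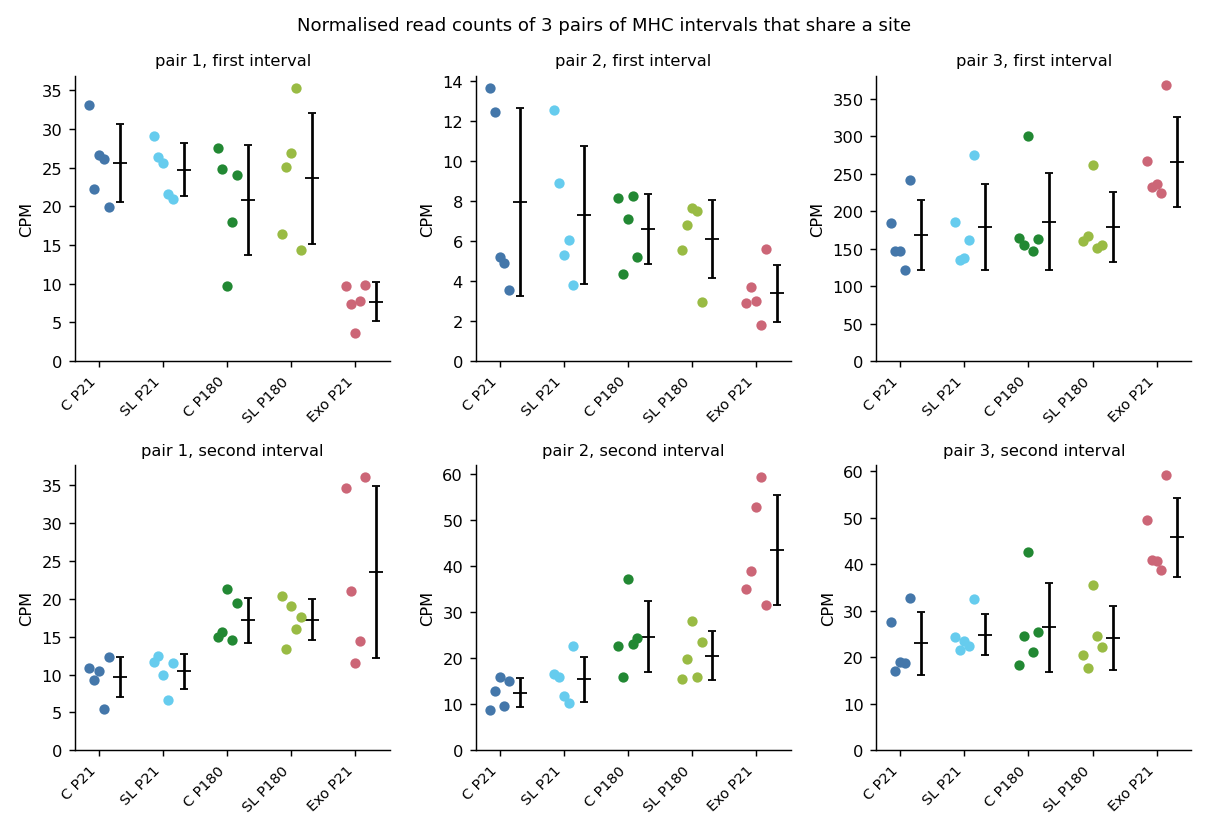
CPM by library for 3 pairs of adjoining intervals of the MHC part, with group mean and SD (n = 5); C is control, SL small-litter and Exo exocrine. In the pairs that meet at 34793798 (pair 1) and at 35261479 (pair 2) the first interval is lower and the second higher in exocrine tissue, and in the pair that meets at 34196710 (pair 3) both are higher.

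In the rest of the window the largest rise was at chr17:25799499-25800703. Control P21 islets held 17.1, 23.0, 20.9, 11.2 and 21.7 CPM and exocrine libraries 74.5, 68.6, 67.9, 26.7 and 44.9 CPM. The tissues did not overlap, and the log2 fold change was 1.54 ± 0.27 (SE; edgeR adjusted p = 0.00113). The other 4 named rises were chr17:24741272-24743108 (1.32), chr17:30108071-30108869 (1.22), chr17:26083900-26084592 (1.21) and chr17:25377426-25379784 (1.01), of which the last lost its call in 4 of 10 refits that left out 1 library.

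The 5 named falls of the rest were deeper. chr17:28409078-28409393, 315 bp long, held 47.1, 77.5, 37.4, 42.5 and 30.4 CPM in control P21 islets and 8.30, 8.63, 7.47, 8.45 and 13.6 CPM in exocrine tissue, with a log2 fold change of -2.39 ± 0.28 (SE; edgeR adjusted p = 3.57e-05). chr17:29215556-29215991 (-2.62) and chr17:28699040-28699208 (-2.48) rested on 25 exocrine counts each. chr17:29194121-29195028 fell by 2.25 and chr17:31019244-31020615 by 1.89. All 5 kept their calls in the 10 refits that left out 1 library, and in each the tissues did not overlap.

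Called falls stood side by side in places. Ordered by position, 5 successive intervals within a span of 158.7 kb (29057266 to 29215991) fell in exocrine tissue, with log2 fold changes from -0.95 to -2.62. The first, chr17:29057266-29058588, went from 49.97 to 67.1 CPM in control P21 islets to 18.6 to 29.5 CPM in exocrine libraries. The weakest, chr17:29195028-29196739, lost its call in 9 of 10 refits that left out 1 library. Most of the span, from 29059187 to 29194121, held no interval. Neighbours in this run shared the sites at 29058588 and 29195028, so their values were not independent. A run of 3 falls lay within a span of 218.5 kb from 27850381 to 28068846, with log2 fold changes from -0.79 to -1.72. Most of that span, from 27862323 to 28067421, held no interval. The MHC part had no run of 3 or more called intervals. How often such runs occur over the whole table was not counted.

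Tissue differences depended on interval length in both parts. With all intervals of the table split into 4 length classes of equal size, the shortest class (61 to 541 bp) had a median log2 fold change of -0.24 in the MHC part, -0.63 in the rest and -0.56 over the table. In the next 3 classes it was 0.27, 0.32 and 0.32 in the MHC part, and 0.16, 0.00 and 0.08 in the rest. The MHC part thus had the higher median in each class. Of its 10 falls, 7 were in the shortest class and 3 in the third, and its 13 rises were spread as 2, 5, 3 and 3. Of the 58 falls of the rest, 30, 15, 9 and 4 lay in the classes from short to long. The called falls had a median length of 252.5 bp in the MHC part, 516 bp in the rest and 441 bp over the table.

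Length moved with libraries as well as with tissue. The correlation across intervals between log2 length and a library's deviation from the mean was 0.32 to 0.48 in exocrine replicates 1 to 4 but -0.11 in replicate 5. In control P21 islets replicates 1 to 5 it was -0.31, -0.65, 0.14, 0.18 and 0.20. The part of fragment size in the tissue differences of short members was not tested beyond the length-corrected counts given above.

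**Figure D4:**
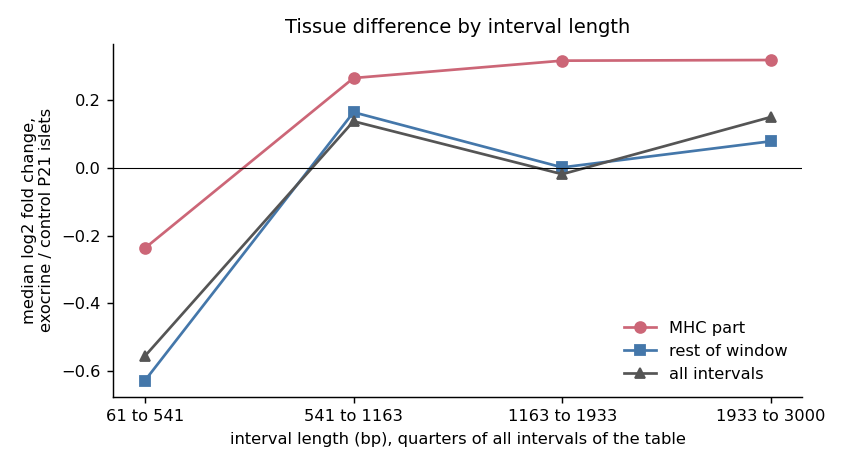
Median log2 fold change, exocrine over control P21 islets, by class of interval length in bp (4 classes of equal size), for the MHC part, the rest of the window and all intervals of the table. Medians are lowest in the shortest class in all 3 sets, and those of the MHC part are the highest in each class, from -0.24 to 0.32.

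Along the window in bins of 0.5 Mb, the median tissue difference was positive in 6 of the 7 bins of the MHC part that held intervals. The exception was the bin from 36.5 to 37 Mb, with -0.07 over 4 intervals. The 3 bins with most members, from 34 to 35.5 Mb, held medians of 0.21, 0.22 and 0.26. In the rest of the window medians ran from -0.64 (32.5 to 33 Mb, 14 intervals) to 0.32 (24 to 24.5 Mb, 9 intervals).

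Islets at P180 were compared with islets at P21 over the 4 islet groups, both litter sizes averaged. Of 453 tested members 3 rose with age (0.662%, against 0.194% over the table) and 0 fell (0.0177% over the table). They were 1 interval of the MHC part and 2 of the rest. At an unadjusted p below 0.05 there were 29 members (6.40%, against 9.57% over the table). The median log2 change with age was -0.01 in the MHC part and -0.07 in the rest, against 0.00 over the table.

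The MHC member that rose with age was chr17:34793798-34794698, the second interval of the first opposite pair. Control islets held 10.9, 9.32, 10.4, 5.42 and 12.3 CPM at P21 and 14.9, 15.7, 21.2, 14.6 and 19.4 CPM at P180. Small-litter islets held 11.6, 12.4, 9.87, 6.61 and 11.5 CPM at P21 and 20.3, 13.4, 19.0, 16.1 and 17.6 CPM at P180. All 10 P180 libraries were higher than all 10 P21 libraries, and no other member separated the ages within both litter groups (0.0706% over the table). The log2 change was 0.79 ± 0.15 (SE; edgeR adjusted p = 0.0244), 0.87 ± 0.22 in control and 0.72 ± 0.21 in small-litter islets. The adjoining chr17:34792631-34793798, which fell in exocrine tissue, changed by -0.17 ± 0.18 with age (edgeR adjusted p = 0.824).

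In the rest of the window chr17:30108071-30108869, 798 bp long, rose by 0.71 ± 0.14 (SE; edgeR adjusted p = 0.0268). Its control islets went from 46.7, 74.1, 38.6, 34.0 and 51.0 CPM to 106, 77.6, 103, 105 and 97.1 CPM, with no overlap. Its small-litter islets went from 50.8, 65.5, 64.5, 66.3 and 49.1 CPM to 90.8, 62.2, 82.2, 60.4 and 93.6 CPM, with overlap. The 2 changes were 1.04 ± 0.19 and 0.38 ± 0.19, and the test of their difference did not pass (-0.66 ± 0.27, unadjusted p = 0.0242, edgeR adjusted p = 1). chr17:28648767-28649769, 1002 bp long, rose by 0.98 ± 0.19 (SE; edgeR adjusted p = 0.032), from 1.84 to 5.17 CPM over the 10 P21 libraries to 4.36 to 8.20 CPM over the 10 P180 libraries, on 55 and 104 counts at P21 and 139 and 160 at P180 (control and small-litter).

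**Figure D5:**
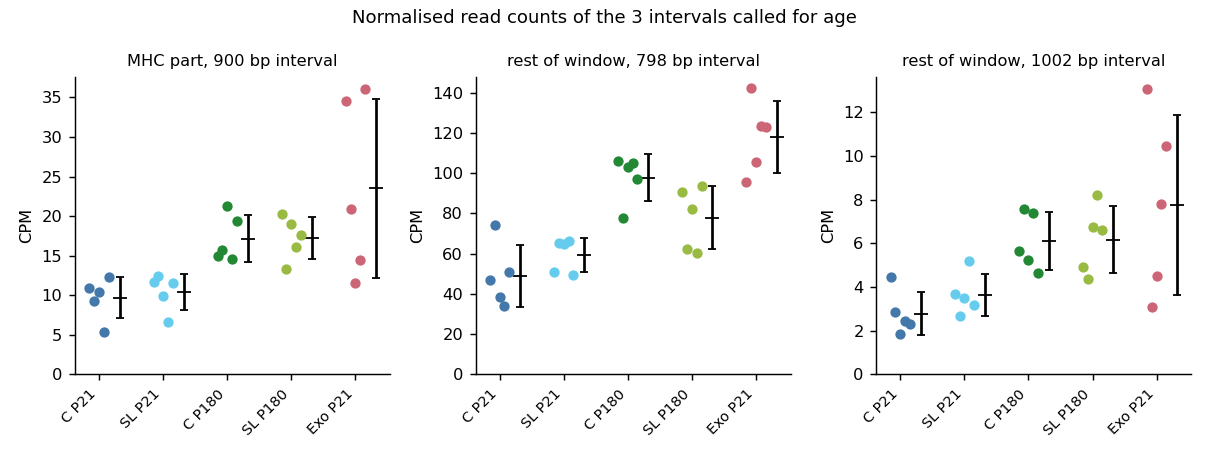
CPM by library for the 3 members called for age, with group mean and SD (n = 5); C is control islets, SL small-litter islets and Exo exocrine tissue. In the left panel, the member of the MHC part, all P180 islet points (13.4 to 21.2 CPM) lie above all P21 islet points (5.42 to 12.4 CPM), while the other panels show overlap.

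These 3 calls were close to the threshold. Without 1 islet library at a time, the MHC member lost its call in 9 of 20 refits, with adjusted p from 0.0343 to 0.0634 over the refits. The other members lost theirs in 10 and 13 of 20. No call remained without control P21 islets replicate 3, without small-litter P180 islets replicate 3 or without small-litter P180 islets replicate 5. Without the 4 islet libraries of lowest scaling factor in their groups, none of the 3 was called, and the log2 changes were 0.81, 0.67 and 0.94. Exocrine tissue was higher than control P21 islets at all 3 members, by 1.24, 1.22 and 1.44 on the log2 scale, a comparison that shares the control P21 islet libraries.

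Next in order of p, and not called, were chr17:35261479-35263149 (0.71 ± 0.17 SE, edgeR adjusted p = 0.121), chr17:29057266-29058588 (-0.35 ± 0.11 SE, edgeR adjusted p = 0.215) and chr17:27592177-27593318 (-0.28 ± 0.09 SE, edgeR adjusted p = 0.223). Tested within one litter group, edgeR called 0 members for age in control islets (20 at an unadjusted p below 0.05, 4.42%, against 4.64% over the table) and 0 in small-litter islets (11 at an unadjusted p below 0.05, 2.43%, against 5.18% over the table). DESeq2 called 1 in control islets, chr17:30108071-30108869 (adjusted p = 0.00752), and 0 in small-litter islets.

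The change with age in small-litter islets and the tissue difference share no library, so their directions can be set side by side. Among intervals called for tissue, the small-litter change pointed toward the exocrine value at 16 of 23 in the MHC part (69.6%), at 57 of 78 in the rest (73.1%) and at 74.0% over the table. In the MHC part these were 7 of the 13 that rose and 9 of the 10 that fell. The share in the window was near that of the table.

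Litter size changed no member by edgeR's test. At P21 0 of 453 members were called (0% over the table), 0 of them had an unadjusted p below 0.05 (0.927% over the table), and DESeq2 called 0. At P180 0 were called (0% over the table), 5 had an unadjusted p below 0.05 (0.887% over the table), and DESeq2 called 0. For a change with age that differs by litter size, 0 were called (0% over the table), 2 had an unadjusted p below 0.05 (0.998% over the table), and DESeq2 called 0.

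The smallest p at P21 was at chr17:25989424-25991606, with 18.8, 27.3, 22.7, 28.1 and 25 CPM in control and 24.8, 28.6, 41.2, 35.0 and 24.3 CPM in small-litter islets, which overlap (0.36 ± 0.19 SE, unadjusted p = 0.0683, edgeR adjusted p = 1). At P180 it was at chr17:35069436-35071340 in the MHC part, with 25.9, 18.9, 17.6, 15.8 and 17.8 CPM in control and 12.1, 16.6, 17.3, 12.7 and 13.2 CPM in small-litter islets (-0.45 ± 0.18 SE, unadjusted p = 0.0218, edgeR adjusted p = 1). There too the groups overlapped.

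The members with the highest CPM per interval, a value not corrected for length, were called in no comparison. In the MHC part they were chr17:35159690-35160692, chr17:36019736-36020657 and chr17:35148700-35149524, at 395 ± 107, 379 ± 108 and 285 ± 22.8 CPM in control P21 islets and 490 ± 96.7, 536 ± 176 and 340 ± 56.0 CPM in exocrine tissue (SD, n = 5). In the rest they were chr17:24815507-24816715, with 652 ± 108 CPM in control P21 islets, chr17:27254852-27255460 and chr17:28069386-28070303. The lowest of the MHC part, chr17:34705374-34705510, chr17:34970829-34973464 and chr17:35069157-35069436, held 3.76 ± 3.23, 2.15 ± 1.03 and 5.12 ± 4.20 CPM in control P21 islets, and the last was not tested for tissue. Of the lowest of the rest, chr17:26852948-26854589, chr17:29215556-29215991 and chr17:31658540-31660046, the first was not tested in either fit and the second is among the falls given above. The intervals on either side of the boundary at 33.5 Mb, chr17:33484028-33485537 and chr17:33729951-33730358, had tissue log2 fold changes of 0.04 ± 0.23 and 0.00 ± 0.16 (SE).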

How the data were processed

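Read counts per interval between neighbouring CCCGGG sites were deposited by the authors as 1 table of raw counts for 25 libraries. Per the labels' protocols, 500 ng of DNA was cut with SmaI and then XmaI, ligated to adaptors, amplified, sheared to 200 to 500 bp and sequenced as read pairs. Bowtie 0.12.9, cutadapt, FastQC 0.10.1 and build mm9 are named in the submitters' processing notes, and how reads were counted is not given in the sources used here.

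Counts were tested with edgeR 4.0.16 (R 4.3.3; filterByExpr, TMM scaling, robust quasi-likelihood fits), adjusted over all tested intervals. The tissue fit held the 10 control P21 libraries and the islet fit the 20 islet libraries. CPM were scaled over all 25 libraries, and log2 CPM used a prior count of 2. The members and lists were chosen with earlier results of these data known. Named intervals were, per part, up to 5 called tissue changes in each direction without overlap and with at least 20 counts in the lower tissue, the smallest p for age and litter size, the 3 highest and 3 lowest levels, runs of at least 3 calls and the intervals beside the boundary; runs were ordered by position, since the table is not sorted. On simulated counts with this design, the tissue test recovered 24% of 2-fold and 82% of 4-fold changes with 7 false calls among 22514 intervals, and the age test 72% and 98% with 4 among 22654. The simulation changed only a small set of intervals above a count floor. That set was far smaller than the 1818 higher and 3158 lower calls for tissue, and larger than the 44 and 4 for age. Since adjusted p depends on how many intervals change, these rates do not carry over to the data. Same-numbered libraries did not deviate together in every pair (r from -0.36 to 0.65), so no pairing was assumed. P-values weigh a difference of group means against the spread between mice within groups, pooled over the groups of a fit and partly shared across intervals. Alternatives were RLE scaling, DESeq2 1.42.0, no filter, a filter at a mean of 50 counts, a replicate block, a single fit of all 25 libraries, removal of the length trend, a boundary at 34000000 and leaving out each library. Leaving out the 3 islet libraries with most zeros and the library of lowest scaling factor in each of the 5 groups was added after seeing the data.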

Additional observations from a re-analysis of the deposited data

Results flagged for a closer look

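In 22 of 245 checks of a value within a group of 5 libraries (8.98%), 1 library stood apart, with its gap to the nearest other library above 0.71 of the group's range. The cut-off corresponds to about 1 in 20 for 5 independent normal values. The checks share libraries and include intervals picked for their values, so their share is not tested against that rate. The libraries of lowest scaling factor recur in this list. Small-litter P21 islets replicate 5 was highest at chr17:34196710-34198756 (32.5 CPM, the others 21.5 to 24.5), chr17:34853278-34853843 (213 CPM, the others 84.3 to 117), chr17:26083900-26084592 (318 CPM, the others 138 to 190) and chr17:28069386-28070303 (421 CPM, the others 256 to 277). Control P180 islets replicate 3 was highest at chr17:34853278-34853843 (211 CPM), chr17:35159690-35160692 (607 CPM) and chr17:36019736-36020657 (601 CPM), and in the share of its counts within the MHC part (0.688%, the others 0.606% to 0.630%). Small-litter P180 islets replicate 3 was highest at chr17:34853278-34853843 (177 CPM) and chr17:26083900-26084592 (314 CPM). Exocrine replicate 5 was highest at chr17:35159690-35160692 (660 CPM), chr17:28409078-28409393 (13.6 CPM) and chr17:27861966-27862323 (46.8 CPM).

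Exocrine replicate 1 stood apart at chr17:25377426-25379784 (17.8 CPM) and exocrine replicate 3 at chr17:31658540-31660046 (5.55 CPM, the others 0.936 to 1.56). Among the islets, control P21 replicate 3 was highest at chr17:34960278-34962965 (16.6 CPM) and lowest at chr17:28067421-28068846 (27.9 CPM, the others 38.3 to 40.6). Control P180 replicate 1 was highest at chr17:28067421-28068846 (34.6 CPM), and control P21 replicate 2 at chr17:29215556-29215991 (10.5 CPM). Small-litter P180 replicate 5 was highest at chr17:31019244-31020615 (10.5 CPM) and replicate 4 at chr17:35148700-35149524 (429 CPM). The mean level of the rest of the window relative to all intervals was highest in small-litter P21 replicate 1 (0.646 log2 units, the others 0.268 to 0.355), the library with most intervals at 0.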

How the results depend on the processing

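The counts of called tissue differences moved by over 1.5 times under some settings. Rises in the MHC part, 13 as reported, numbered 26 with all 25 libraries in one fit and 20 with the length trend removed, and rises in the rest, 20 as reported, numbered 37 with all 25 libraries and 34 without the library of lowest scaling factor in each tissue. With the replicate block, which pairs libraries by a number that different mice share, falls numbered 6 in the MHC part and 36 in the rest. Leaving out 1 library gave 8 to 20 rises and 6 to 13 falls in the MHC part, and 14 to 34 rises and 42 to 70 falls in the rest. The 3 rises with age became 1 with all 25 libraries, 1 with the replicate block, 0 without the 3 islet libraries with most zeros, 0 without the 4 of lowest scaling factor in their groups and 0 to 3 without 1 library. Age in control islets, 0 as reported, gave 1 with DESeq2 and 0 to 1 without 1 library. The counts of 0 for falls with age, age in small-litter islets, litter size and its interaction stayed at 0 under each alternative run. In these settings the cause of a move was not tested. Of 783 refitted values for named intervals, 700 kept their direction and side of the threshold, 82 lost and 1 gained the call, and 0 reversed. Libraries correlated best with their own number in 0 to 3 of 5 cases per pair of groups. Smaller changes at members can go uncalled, and how many did was not measured. The 24% of 2-fold changes recovered in the simulated tissue design does not carry over, because far fewer intervals changed there than were called in the data.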
